A study of Mus musculus with 4 samples.

Results

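The mitochondrial genome is a small circular DNA held in many copies per cell. It encodes 13 proteins of the respiratory chain and the ATP synthase, 22 transfer RNAs and 2 ribosomal RNAs. Both strands are transcribed as long precursors, which are cut mostly at the transfer RNAs that lie between the other genes, and the messenger RNAs then receive poly(A) tails. In the testis, Leydig cells use mitochondria for steroid synthesis, and spermatids rebuild theirs into the sheath of the sperm midpiece. The genes described here are the 35 rows, of 57010 in the count table, whose Ensembl identifier maps to a symbol that starts with mt-, without the ribosomal RNAs mt-Rnr1 and mt-Rnr2. They are 13 protein genes and 22 transfer RNAs, and all 35 lie on the mitochondrial chromosome, so the symbols and the positions gave the same set.

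Testis RNA came from male ICR mice that, by the study's methods, were 8 weeks old when obtained. The BUS group received 30 mg/kg of busulfan, a DNA-alkylating drug toxic to dividing germ cells, followed by vehicle. The BUS + ULA group, called ULA here, received the same busulfan dose and then ursolic acid, a plant triterpenoid, at 50 mg/kg daily by gavage, starting 2 weeks after busulfan and lasting 4 weeks. Each group had 2 libraries, and mice without busulfan were not analysed here, so every library carries the busulfan treatment. The study's methods name 2 biological replicates and a technical replicate, without assigning them to libraries. The labels do not tie a library to an animal, and p-values measure the spread between these libraries.

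Total counts were 18147335 and 18216380 in BUS and 16312898 and 15078828 in ULA. The ULA libraries differed from the BUS libraries in composition. The identifier ENSMUSG00000119584, which has no symbol in the annotation used, took 0.00418% and 0.000637% of the counts in BUS and 7.88% and 18.5% in ULA, and protein-coding genes took 96.9% and 96.3% in BUS and 87.4% and 76.9% in ULA. Levels are given as CPM, counts per 1000000 counts of the TMM-scaled library size. A gene was called when its adjusted p (edgeR's quasi-likelihood test with Benjamini-Hochberg adjustment over 23023 genes tested) was under 0.05. By this rule 27.0% of all genes tested were called, 11.8% higher and 15.3% lower with ULA.

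None of the 13 mitochondrial protein genes changed by this test, and 1 of the 4 transfer RNAs that could be tested, mt-Tp, fell. Of the 35 genes, 17 had enough counts for the test, namely all 13 protein genes and 4 transfer RNAs. The 13 protein genes had a median log2 fold change of -0.13, with 9 negative and 4 positive values between -0.70 and 0.95, beside a median of 0.02 over all genes tested. Their adjusted p ran from 0.153 to 0.967 with edgeR, and 0 of the 13 had an unadjusted p under 0.05, a mark that 43.4% of all genes tested reached, or 42.1% with a fold over 1.5 as well. DESeq2 and limma-voom also called none after adjustment, and each gave mt-Co1 alone an unadjusted p under 0.05. Standard errors ran from 0.25 to 0.50 on the log2 scale, and the 95% intervals reached from -1.49 to 2.03. The count of 0 was not stable. With upper-quartile factors mt-Atp6 (0.80) and mt-Co3 (0.82) were called higher, beside 4282 of all 23023 genes, whose median rose to 0.31. With no filter beyond 1 count mt-Co1 (-0.79) and mt-Nd5 (-0.58) were called lower, beside 5094 of all 42274 genes. The log2 fold change of mt-Co3 was 0.83 without BUS replicate 1. Those of mt-Co1 and mt-Nd5 were -0.96 and -0.74 without BUS replicate 2.

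**Figure D1:**
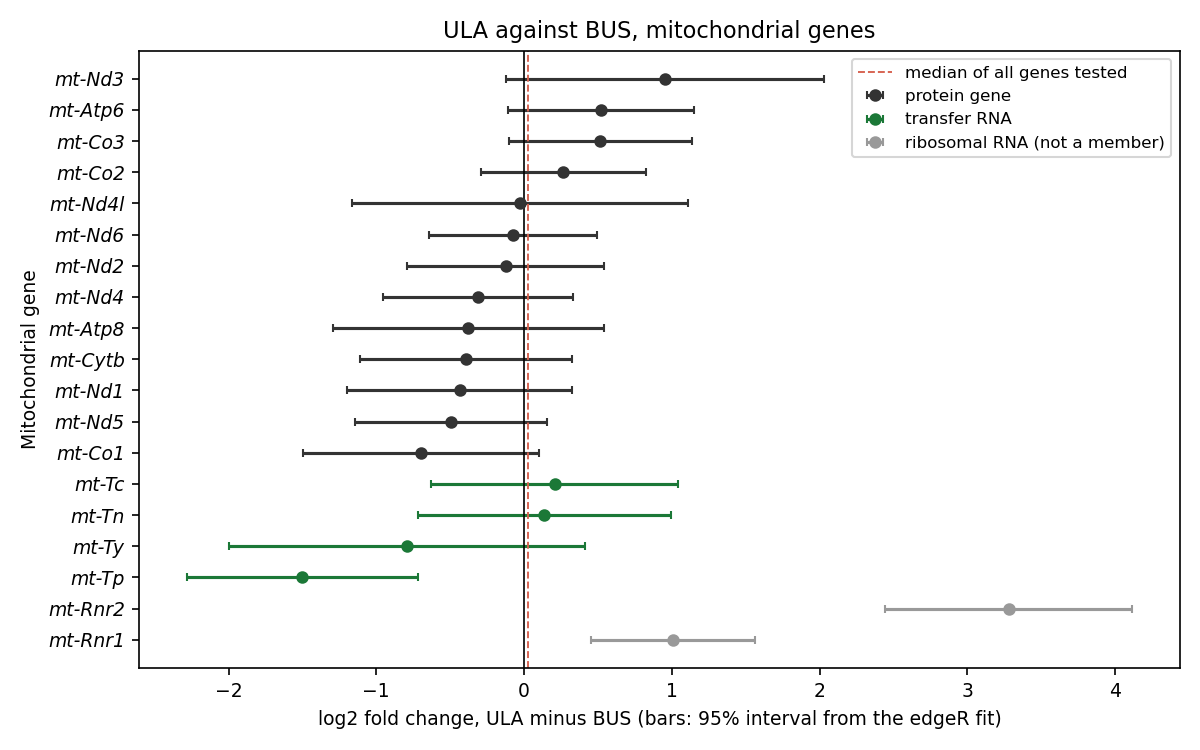
Log2 fold changes (ULA minus BUS) of the 17 tested mitochondrial genes and, in grey, of the ribosomal RNAs, on the horizontal axis, with 95% intervals from the edgeR fit as bars and the median of all genes tested (0.02) as a dashed line. All 13 intervals of protein genes include 0, and the interval of mt-Tp (-2.28 to -0.72) does not.

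Complex IV, cytochrome c oxidase, passes electrons to oxygen, and its core is made of the 3 mitochondrial products of mt-Co1, mt-Co2 and mt-Co3. mt-Co1 (chromosome MT, 5328 to 6872, + strand, GRCm38) encodes the catalytic subunit and was the most abundant mitochondrial gene in every library. It held 155492 and 112596 counts in BUS and 78383 and 47039 in ULA, or 8181 and 5543 CPM in BUS and 4742 and 3729 CPM in ULA. Both ULA libraries were below both BUS libraries, and the BUS libraries were farther from each other than the lower BUS library was from the higher ULA library. The mean was 6862 ± 1865 CPM in BUS and 4236 ± 717 CPM in ULA (SD, n = 2 each). The log2 fold change was -0.70 (standard error 0.35, edgeR adjusted p = 0.159). mt-Co2, which carries the copper site that takes electrons from cytochrome c, held 64.8 and 47.1 CPM in BUS and 73.6 and 60.6 CPM in ULA, and the groups overlapped (log2 fold change 0.26, standard error 0.25). mt-Co3, a core subunit without a metal site, held 38.6 and 25.5 CPM in BUS and 51.2 and 40.4 CPM in ULA. Both ULA libraries were above both BUS libraries for mt-Co3, by a narrow margin (log2 fold change 0.52, standard error 0.28, edgeR adjusted p = 0.177).

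Complex I, NADH dehydrogenase, takes electrons from NADH and has 7 mitochondrial subunits, all in its membrane arm. mt-Nd1, which lies at the joint with the nuclear-encoded arm, held 1484 and 1014 CPM in BUS and 1171 and 675 CPM in ULA, with overlap between the groups (log2 fold change -0.44, standard error 0.34). The proton-pumping subunits mt-Nd2, mt-Nd4 and mt-Nd5 had log2 fold changes of -0.13, -0.31 and -0.50. Of these, only mt-Nd5 separated the groups, with 1212 and 858 CPM in BUS and 836 and 632 CPM in ULA (edgeR adjusted p = 0.210). mt-Nd6 is the only protein gene annotated on the - strand (chromosome MT, 13552 to 14070). It held 131 and 113 CPM in BUS and 138 and 93.9 CPM in ULA, and its log2 fold change was -0.07 (standard error 0.25). The small subunits mt-Nd3 and mt-Nd4l were at the bottom of the range. mt-Nd3 held 21 and 13 counts in BUS and 32 and 18 in ULA, which overlap as counts but not as CPM (1.11 and 0.640 CPM in BUS, 1.94 and 1.43 CPM in ULA). Its log2 fold change of 0.95 was the largest of the 13, with the second largest standard error, 0.48 (edgeR adjusted p = 0.153). mt-Nd4l held 70 and 39 counts in BUS and 62 and 21 in ULA, and its difference was -0.03 (standard error 0.50).

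Complex III has a single mitochondrial subunit, cytochrome b. Its gene mt-Cytb held 2067 and 1420 CPM in BUS and 1577 and 1082 CPM in ULA. The groups overlapped, and the log2 fold change was -0.39 (standard error 0.32). The ATP synthase has 2 mitochondrial subunits. mt-Atp6, part of the proton channel, held 32.6 and 28.2 CPM in BUS and 53.6 and 33.5 CPM in ULA, so that ULA replicate 2 lay just above the higher BUS library (log2 fold change 0.52, standard error 0.28, edgeR adjusted p = 0.181). mt-Atp8, a small stalk subunit whose gene overlaps mt-Atp6, held 40 and 41 counts in BUS and 25 and 21 in ULA, with a log2 fold change of -0.38 (standard error 0.41). In all, 6 of the 13 protein genes had CPM that did not overlap between the groups, 3 higher (mt-Atp6, mt-Co3 and mt-Nd3) and 3 lower (mt-Co1, mt-Nd5 and mt-Atp8). Over all genes tested the share without overlap was 75.1%, with 37.9% higher and 37.2% lower.

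The libraries of a group differed among themselves in the same direction for nearly all of these genes. BUS replicate 1 was above BUS replicate 2 for 13 of 13 protein genes, by a median factor of 1.41 (1.04 for mt-Atp8 to 1.92 for mt-Nd4l). ULA replicate 1 was above ULA replicate 2 for 12 of 13, by a median factor of 1.46 (0.909 for mt-Atp8 to 2.25 for mt-Nd4l). Their summed level was 14677 and 10133 CPM in BUS and 9972 and 7219 CPM in ULA. The 2 groups did not overlap in this sum, but BUS replicate 2 and ULA replicate 1 lay much closer to each other than either lay to its own replicate. As a share of all counts, the 13 genes took 1.54% and 1.13% in BUS and 1.01% and 0.604% in ULA. Relative to the counts on nuclear protein-coding genes, which leave out ENSMUSG00000119584 but keep Lars2, the values were 1.61% and 1.19% in BUS and 1.17% and 0.791% in ULA. Of all counts without ENSMUSG00000119584, Lars2 and the mitochondrial ribosomal RNAs, they were 1.54% and 1.13% in BUS and 1.11% and 0.755% in ULA. No test was applied to these shares, because an exact permutation test of 2 libraries against 2 cannot give a two-sided p below 0.333.

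Per length of gene, the 13 protein genes differed widely in level. The order was the same at the top of all 4 libraries: mt-Co1, mt-Cytb, mt-Nd1, mt-Nd2, mt-Nd5, mt-Nd4 and mt-Nd6, followed by mt-Co2. As means over the 4 libraries, mt-Co1 stood at 3591 CPM per kb and mt-Nd3 at 3.67 CPM per kb. The 6 genes with the lowest levels per kb, mt-Co2, mt-Atp8, mt-Atp6, mt-Co3, mt-Nd3 and mt-Nd4l, are neighbours on the chromosome and ranged from 3.67 to 89.9 CPM per kb. The other 7 ranged from 229 (mt-Nd6) to 3591 CPM per kb. mt-Co1, mt-Cytb and mt-Nd1 together took 79.9% and 78.7% of the counts on mitochondrial protein genes in BUS and 75.1% and 76.0% in ULA.

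**Figure D2:**
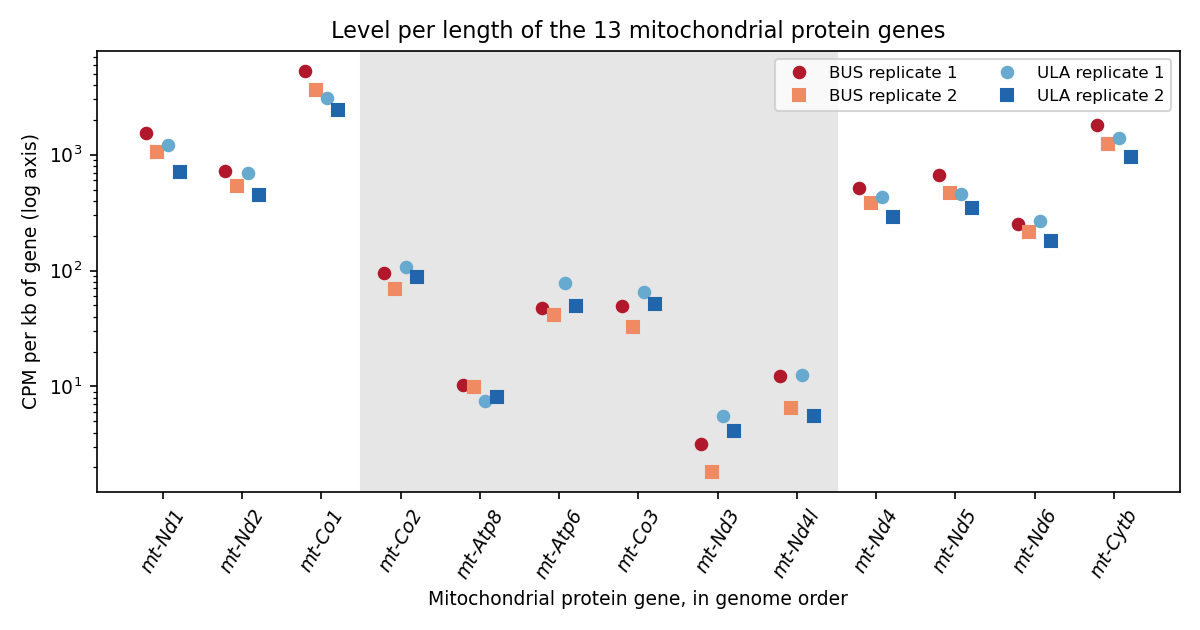
CPM per kb of gene (log axis) for the 13 mitochondrial protein genes in genome order, with a point for each of the 2 BUS and 2 ULA libraries. The grey band marks the 6 genes inside the stretch flanked by copies on chromosome 1, which lie between 3.67 and 89.9 CPM per kb on average, below the other 7.

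Most of the stretch that holds these 6 genes has nearly identical annotated copies in the nuclear genome. In GRCm38, 7 annotated pseudogenes on chromosome 1 (24611535 to 24616197, - strand, 4663 bases) follow the order of the mitochondrial genes from the end of mt-Co1 to the first part of mt-Nd4 (chromosome MT, 6381 to 11042, 4662 bases). The copies of mt-Co2 (Gm28661), mt-Atp6 (Gm10925), mt-Co3 (Gm28437), mt-Nd4l (Gm10222) and mt-Nd4 (Gm28439) had 0 mismatches over 681, 678, 783, 294 and 876 bases. The copy of mt-Nd3 (Gm28438) had 1 mismatch in 345 bases, T3C, and that of mt-Co1 (Gm29216) had 6 in 492 bases, with positions counted from 1 at the first base of the mitochondrial gene. Identity was measured only through these 7 transcripts. mt-Atp8 and the 5 transfer RNAs inside the stretch have no annotated copy among them and were not aligned to chromosome 1. Annotated pseudogenes elsewhere also shared exact windows of 50 bases with mitochondrial genes. On chromosome 2, Gm13340 shared 411 windows with mt-Co1, Gm13341 224 with mt-Co2 and Gm13339 81 with mt-Nd2. mt-Nd5 shared 73 windows with Gm4076 and 64 with Gm11407. Counts on these other pseudogenes are not shown here. A read inside an identical stretch cannot be placed on either gene from its sequence alone. To show what a counting program met, the first bases of 2 pairs are given from the GENCODE transcripts (GRCm38), with the base that differs in capitals and none in capitals where the pair is identical.
mt-Atp6: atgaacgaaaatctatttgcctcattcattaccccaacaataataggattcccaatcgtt
Gm10925: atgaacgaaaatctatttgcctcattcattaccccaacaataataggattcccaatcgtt
mt-Nd3: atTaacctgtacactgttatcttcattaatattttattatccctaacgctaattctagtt
Gm28438: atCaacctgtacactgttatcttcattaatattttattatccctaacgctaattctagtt

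Counts on these pairs were split between the mitochondrial gene and the copy. The shares are given as a description, and their difference between the groups was not tested. Of the counts on mt-Atp6 and Gm10925, the copy took 61.4% and 57.7% in BUS and 46.8% and 49.9% in ULA. For mt-Co3 and Gm28437 it took 54.7% and 54.8% in BUS and 51.2% and 48.2% in ULA. For mt-Nd3 and Gm28438, with few counts, it took 63.8% and 69.0% in BUS and 48.4% and 48.6% in ULA, and for mt-Nd4l and Gm10222 it took 52.4% and 56.7% in BUS and 43.6% and 41.7% in ULA. The share on Gm28661, the copy of mt-Co2, was 34.8% and 35.4% in BUS and 33.4% and 33.0% in ULA. In these 5 pairs, both ULA libraries were below both BUS libraries. The 95% Wilson intervals cover counting error within a library, not the spread between libraries, so they cannot tell whether the groups differ. They were apart between the groups only for mt-Atp6 among these 5 pairs. The 2 pairs in which only part of the mitochondrial gene is copied on chromosome 1 differed from these 5 pairs. The share of Gm28439 against mt-Nd4 overlapped (1.65% and 1.81% in BUS, 1.73% and 1.66% in ULA). That of Gm29216 against mt-Co1 was higher in both ULA libraries, with these intervals apart (0.330% and 0.328% in BUS, 0.409% and 0.472% in ULA). None of the 7 copies was called as a gene of its own, and their log2 fold changes ran from -0.66 to 0.24.

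**Figure D3:**
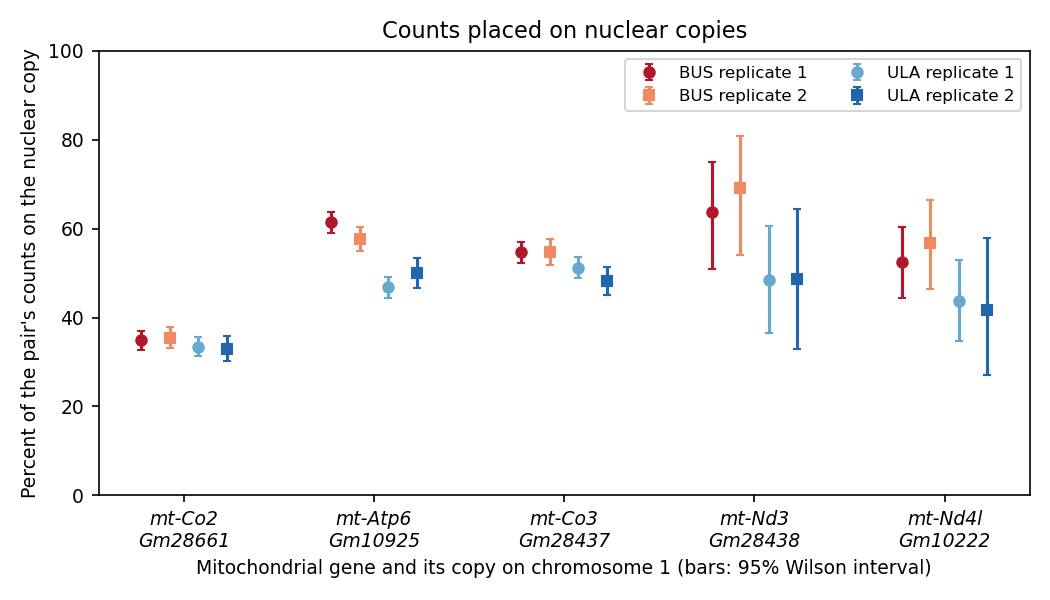
Percent of the counts of a mitochondrial gene and its copy on chromosome 1 that were placed on the copy, for the 5 pairs in which nearly the whole mitochondrial gene is copied, in each library, with 95% Wilson intervals for counting error. Both ULA points lie below both BUS points in every pair, from the 61.4% and 57.7% of Gm10925 in BUS to its 46.8% and 49.9% in ULA.

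The 6 genes inside the stretch had 4 positive and 2 negative log2 fold changes (mt-Nd4l and mt-Atp8) with a median of 0.39, and the other 7 protein genes were all negative with a median of -0.39. The 5 of the 6 with an annotated copy of nearly the whole gene, that is without mt-Atp8, had a median of 0.52. When the counts of each pair were added together, an alternative chosen after seeing the data, the log2 fold changes became 0.15 for mt-Atp6, 0.37 for mt-Co3, 0.36 for mt-Nd3, 0.22 for mt-Co2 and -0.34 for mt-Nd4l, and none was called. Within the counts on mitochondrial protein genes, which need no scaling between libraries, the 6 genes of this stretch took 0.973% and 1.04% in BUS and 1.86% and 1.93% in ULA. On the same measure mt-Co1 took 55.7% and 54.7% in BUS and 47.6% and 51.7% in ULA. The part of shared reads in these differences was not tested.

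Transfer RNAs carry amino acids to the mitochondrial ribosome, and they were sparse in these libraries, which were made with an mRNA kit. The 22 genes together held 337 and 330 counts in BUS and 194 and 130 in ULA. Of the 22, 8 had 0 counts in all 4 libraries, and a count of 0 allows up to 0.158 and 0.148 CPM in BUS and 0.182 and 0.238 CPM in ULA, for counting error only. All 5 transfer RNAs inside the stretch flanked by copies on chromosome 1 (mt-Ts1, mt-Td, mt-Tk, mt-Tg and mt-Tr) were among these 8, beside 3 of the 17 outside it (mt-Tf, mt-Tv and mt-Tt). The counts lay mainly on the 8 genes annotated on the - strand, opposite to most messenger RNAs, with 319 and 312 counts in BUS and 176 and 110 in ULA. Most of these were on mt-Tp, mt-Tn and mt-Tc, while mt-Ts1, mt-Tq and mt-Ta on the same strand held 0 to 3 counts per library. The 14 on the + strand held 18 and 18 counts in BUS and 18 and 20 in ULA. The 4 that were tested are all on the - strand, and their sequences, from the GENCODE transcripts (GRCm38), are shown because they are the transfer RNAs on which values can be compared, with the anticodon in capitals.
mt-Tp: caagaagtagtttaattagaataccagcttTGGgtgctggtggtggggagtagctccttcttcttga
mt-Tn: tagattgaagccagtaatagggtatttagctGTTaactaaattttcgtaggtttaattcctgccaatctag
mt-Tc: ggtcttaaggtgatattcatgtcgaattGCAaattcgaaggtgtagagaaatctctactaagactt
mt-Ty: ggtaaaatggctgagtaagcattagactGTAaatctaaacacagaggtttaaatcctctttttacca

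mt-Tp, the transfer RNA for proline (chromosome MT, 15356 to 15422, next to the control region), was the only mitochondrial gene of the 17 tested that was called. It held 201 and 178 counts in BUS and 65 and 36 in ULA, or 10.6 and 8.76 CPM in BUS and 3.93 and 2.85 CPM in ULA. Both ULA libraries were well below both BUS libraries. The mean was 9.67 ± 1.28 CPM in BUS and 3.39 ± 0.763 CPM in ULA (SD, n = 2 each). The log2 fold change was -1.50 (standard error 0.35, edgeR adjusted p = 0.0170). The call was lost without ULA replicate 2 (-1.28, edgeR adjusted p = 0.198) and with scaling to the summed mitochondrial protein genes (-1.003, edgeR adjusted p = 0.120). It held under the other 14 of 16 alternatives, and the log2 fold change was negative in all 16, from -1.74 to -1.003. For every 100 counts on mt-Cytb, the nearest protein gene, there were 0.512 and 0.617 counts on mt-Tp in BUS and 0.249 and 0.264 in ULA. No source used here states whether reads were counted by strand, and without strand, reads of mt-Tp and of an antisense precursor cannot be told apart.

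The other tested transfer RNAs lie in a cluster between mt-Nd2 and mt-Co1. mt-Tn, for asparagine, held 44 and 49 counts in BUS and 44 and 32 in ULA (log2 fold change 0.14, standard error 0.38). mt-Tc, for cysteine, held 49 and 59 counts in BUS and 56 and 37 in ULA (log2 fold change 0.21, standard error 0.37). mt-Ty, for tyrosine, held 13 and 15 counts in BUS and 8 and 4 in ULA (log2 fold change -0.79, standard error 0.53, edgeR adjusted p = 0.275). As CPM, mt-Tn held 2.32 and 2.41 in BUS and 2.66 and 2.54 in ULA, so that its groups did not overlap. Neither did those of mt-Tc, by a narrow margin (2.58 and 2.90 CPM in BUS, 3.39 and 2.93 CPM in ULA). mt-Ty was lower without overlap (0.684 and 0.738 CPM in BUS, 0.484 and 0.317 CPM in ULA). Over all genes tested, 75.1% did not overlap. The log2 fold changes of mt-Tn and mt-Tc turned to -0.08 and -0.01 with library size alone. Among the 18 genes too sparse to test, mt-Tw (tryptophan) held 11 and 10 counts in BUS and 3 and 3 in ULA, mt-Te (glutamate) held 8 and 10 against 2 and 1, and mt-Th (histidine) held 2 and 2 against 5 and 8. mt-Ts2 (serine), named after its values were seen, held 0 and 0 counts in BUS and 4 and 4 in ULA.

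**Figure D4:**
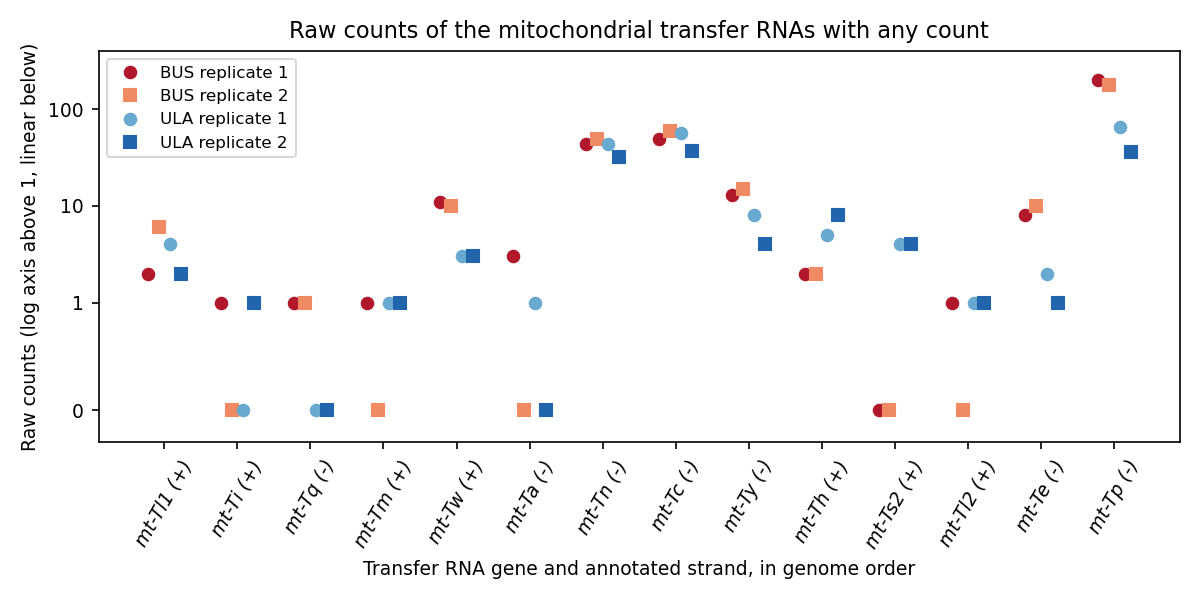
Raw counts (log axis above 1, linear below) of the 14 mitochondrial transfer RNAs with any count, in genome order with their annotated strand, in each of the 2 BUS and 2 ULA libraries. mt-Tp is the highest in BUS (201 and 178 counts) and lower in ULA (65 and 36), while mt-Tn and mt-Tc overlap as counts, though not as CPM.

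The mitochondrial ribosomal RNAs, which come from the same precursors, moved apart from the protein genes. mt-Rnr1 held 1331 and 1286 counts in BUS and 1831 and 1992 in ULA (log2 fold change 1.01, standard error 0.25, edgeR adjusted p = 0.0201). mt-Rnr2 rose from 2201 and 1896 counts to 11105 and 17175 (log2 fold change 3.28, standard error 0.37, edgeR adjusted p = 0.0035). For every 100 counts on mt-Co1, mt-Rnr2 held 1.42 and 1.68 in BUS and 14.2 and 36.5 in ULA. The call of mt-Rnr1 was lost without ULA replicate 2 (0.75) and with library size alone (0.76), and that of mt-Rnr2 held under all 15 alternatives that keep it in the fit. ULA replicate 2, with the most mt-Rnr2, also had the most ENSMUSG00000119584 and Lars2. The part of library composition in these values was not tested.

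Genes in the nucleus supply the other respiratory chain subunits and the proteins that copy, transcribe and translate the mitochondrial genome. Of 82 tested nuclear subunits, 22 fell, 0 rose and 60 were not called, with a median log2 fold change of -0.50, beside the 15.3% of all genes that fell. Complex IV had 7 of 16 lower, among them Cox6a1 (-2.51), Cox8a (-2.42) and Ndufa4 (-1.43). Complex I had 6 of 37 lower, among them Ndufb11 (-1.77), Ndufa10 (-1.03) and Ndufv3 (-0.92). Complex III had 3 of 9 lower, Cyc1 (-1.39), Uqcr11 (-1.39) and Uqcr10 (-1.04), and the ATP synthase 4 of 16, among them the ring subunits Atp5g1 (-1.82) and Atp5g3 (-1.48) and the stalk subunit Atp5e (-0.81). Complex II, which is wholly encoded in the nucleus, had 2 of 4 lower, Sdhd (-0.95) and Sdhc (-0.88). Of the mitochondrial subunits, 0 of 7 in complex I, 0 of 1 in complex III, 0 of 3 in complex IV and 0 of 2 in the ATP synthase were called. Their median log2 fold changes were -0.13, -0.39, 0.26 and 0.07 in this order, beside -0.36, -0.32, -0.69 and -0.60 for the nuclear subunits. The median was 0.39 for the 6 mitochondrial genes inside the stretch flanked by copies and -0.39 for the other 7. The median of the nuclear subunits was -0.36 without ULA replicate 2, -0.53 without ULA replicate 1 and -0.58 without BUS replicate 2. Their calls depended on which library was left out, as did those of all genes. With upper-quartile factors 11 were lower and 2 higher (median -0.21), beside 2364 lower and 4282 higher of all 23023 genes tested. Relative to the summed mitochondrial protein genes 4 were lower, beside 966 of all genes, and the median turned to 0.03. With scaling by nuclear protein-coding genes 12 were lower and 1 higher (median -0.30), beside 2741 lower and 3770 higher of all genes. Whether the nuclear and the mitochondrial subunits differ in their response was not tested.

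Of 100 tested nuclear genes for mitochondrial DNA, RNA or translation, 14 fell, 4 rose and 82 were not called, with a median log2 fold change of -0.31, beside the 15.3% lower and 11.8% higher over all genes tested. The share that fell was thus near that of all genes, and the share that rose below it. Tfam, which packages mitochondrial DNA and starts its transcription, rose (42.0 and 43.1 CPM in BUS, 63.4 and 81.4 CPM in ULA, log2 fold change 0.77, edgeR adjusted p = 0.0397). Polrmt, the mitochondrial RNA polymerase, fell (46.1 and 41.5 CPM in BUS, 28.1 and 24.6 CPM in ULA, log2 fold change -0.73, edgeR adjusted p = 0.0473). Both calls lie close to the threshold. Without ULA replicate 1 or 2 neither was called, Tfam was not called with library size alone or with no filter beyond 1 count, and Polrmt was not called with DESeq2, limma-voom, a filter of 10 counts in every library, or scaling by upper quartiles, nuclear protein-coding genes or the mitochondrial sum. The other 8 genes of transcription were not called. In DNA replication and upkeep 4 of 16 fell, among them the ADP/ATP carrier Slc25a4 (-1.67), Fbxl4 (-1.15) and the RNA:DNA hybrid nuclease Rnaseh1 (-1.06). In RNA processing 3 of 19 fell and 1 rose. Those that fell were Hsd17b10 (-2.36), a subunit of the enzyme that cuts the 5′ ends of mitochondrial transfer RNAs, and the RNA modification enzymes Mrm2 (-1.69) and Gtpbp3 (-1.66). In RNA stability and decay 0 of 15 were called, and the most abundant, Grsf1 and Fastk, which bind mitochondrial RNA, had log2 fold changes of -0.24 and -0.58. Over the 100 genes, the median log2 fold change was -0.28 without ULA replicate 2, -0.32 without ULA replicate 1 and -0.42 without BUS replicate 2. Here too the calls depended on which library was left out. Upper-quartile factors gave 6 lower and 7 higher with a median of -0.02, beside 2364 lower and 4282 higher of all 23023 genes tested. Scaling by nuclear protein-coding genes gave 7 lower and 5 higher with a median of -0.11, beside 2741 lower and 3770 higher of all genes. Relative to the summed mitochondrial protein genes 4 were lower and 4 higher, beside 966 and 3690 of all genes, and the median turned to 0.22.

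Of 22 tested mitochondrial aminoacyl-tRNA synthetases, which load the transfer RNAs, 3 fell and 1 rose, beside 15.3% lower and 11.8% higher over all genes tested. Counts on Lars2, the leucine enzyme, rose from 24.8 and 17.0 CPM in BUS to 7043 and 15690 CPM in ULA (log2 fold change 9.09, standard error 0.62, edgeR adjusted p = 0.00061). They made up 0.714% and 1.31% of all counts in ULA, where ENSMUSG00000119584 took 7.88% and 18.5%, and both were near 0 in BUS. Whether these counts reflect the enzyme's messenger RNA was not tested. The leucine transfer RNAs stayed at a few counts: mt-Tl1 held 2 and 6 counts in BUS and 4 and 2 in ULA, and mt-Tl2 1 and 0 in BUS and 1 and 1 in ULA. Vars2 (-1.09) and Sars2 (-1.05), for valine and serine, fell. Pars2, the enzyme that loads mt-Tp, named after its values were seen, held 5.58 and 4.63 CPM in BUS and 3.15 and 2.70 CPM in ULA (log2 fold change -0.80, standard error 0.36, edgeR adjusted p = 0.118). In translation and assembly 3 of 18 fell, Cox14 (-2.00), Oxa1l (-1.41) and Tsfm (-1.05), and 1 rose. Of 12 regulators of mitochondrial biogenesis 3 fell, Esrrg (-1.61), Esrra (-0.92) and Pprc1 (-0.89). These counts stand beside the same shares over all genes tested.

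**Figure D5:**
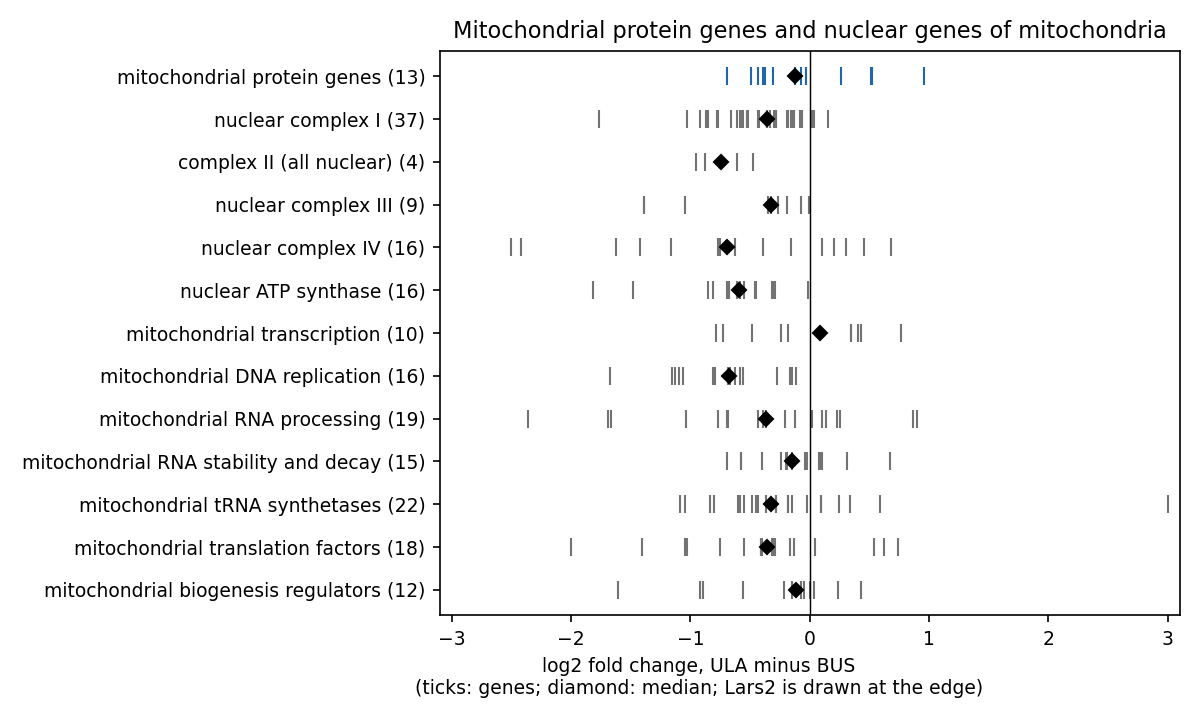
Log2 fold changes (ULA minus BUS, horizontal axis) of the 13 mitochondrial protein genes and of the tested genes of 12 nuclear lists, with a tick for each gene, the number of genes in brackets and a diamond at the median. The mitochondrial protein genes have a median of -0.13, and 22 of the 82 nuclear subunits of the respiratory chain fell, beside 15.3% of all genes tested. Lars2 (9.09) is drawn at the edge.

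The mitochondrial levels were measured in whole testis, in which markers of several cell types also moved. Fewer cells of a type and less RNA per cell cannot be told apart in such samples. Over all genes tested, 15.3% were called lower and 11.8% higher with ULA. All 10 Leydig cell markers fell, and their summed level was 8727 and 5982 CPM in BUS and 1337 and 796 CPM in ULA. Sertoli cell markers fell for 13 of 14, with sums of 6187 and 3202 CPM in BUS and 1890 and 1166 CPM in ULA. In both lists and in the summed mitochondrial protein genes, BUS replicate 1 was the highest and ULA replicate 2 the lowest. This was not particular to them. The spermatogonia, macrophage and endothelial markers and the summed nuclear subunits of the respiratory chain had the same highest and lowest library. The spermatocyte, spermatid, peritubular, erythroid and adipocyte markers did not. Spermatid markers rose for 8 of 10, with sums of 3008 and 4217 CPM in BUS and 8251 and 12580 CPM in ULA, which is the opposite order of libraries. Spermatocyte markers were called for 0 of 8 (882 and 1200 CPM in BUS, 1574 and 1328 CPM in ULA), and 3 of 8 spermatogonia markers fell (322 and 283 CPM in BUS, 154 and 118 CPM in ULA). Of the 12 genes of the sperm mitochondrial sheath, 4 rose, among them Smcp (1.69), Spata19 (1.46) and Armc12 (1.11), and none fell. Smcp also stands in the spermatid list. Without ULA replicate 2 the median log2 fold changes were -2.26 for Leydig, -1.33 for Sertoli and -0.78 for spermatogonia markers. Those of the spermatid markers and the sheath genes were 1.08 and 0.64. The median of the spermatocyte markers was 0.75 without BUS replicate 2, beside 0.45 with all 4 libraries. The calls in these lists depended on which library was left out, as did those of all genes.

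Macrophage markers set BUS replicate 1 apart, at 472 CPM against 118 CPM in BUS replicate 2 and 157 and 108 CPM in ULA, and 0 of 8 were called. Without BUS replicate 1 their median log2 fold change turned from -1.21 to 0.18, and 8 of 8 were lower without BUS replicate 2, 4 without ULA replicate 1, 8 with no filter beyond 1 count and 6 with library size alone. Peritubular and smooth muscle markers were 4 lower and 1 higher of 6 (528 and 339 CPM in BUS, 338 and 394 CPM in ULA), and 2 of 7 endothelial markers fell (150 and 87.8 CPM in BUS, 69.6 and 65.2 CPM in ULA). The median log2 fold change of the peritubular markers was -0.91 without ULA replicate 2 and -0.63 without BUS replicate 1, beside -1.17 with all 4 libraries. That of the endothelial markers was -0.82 with all 4 libraries. It was -0.68, -0.52 and -0.90 without ULA replicate 2, BUS replicate 1 and BUS replicate 2. Blood and fat were scarce: erythroid markers summed to 40.7 to 59.6 CPM with 0 of 5 tested called, and adipocyte markers to 24.3 to 31.2 CPM with 3 higher and 1 lower of 5 tested. Without BUS replicate 1 the median of the erythroid markers was -0.44. That of the adipocyte markers was 0.75 without BUS replicate 1, 1.05 without ULA replicate 1 and 1.01 without ULA replicate 2. In the lists of this paragraph, too, the calls depended on which library was left out. Leydig, Sertoli and germ cell markers were present in all 4 libraries, as the tissue label states. The part of cell composition in the mitochondrial values was not tested.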

How the data were processed

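Raw counts, without normalization, were deposited for Ensembl genes. The paper names Fastp, STAR, GRCm38 and FeatureCounts, and the submitters' processing notes name RSEM 1.3.1; no source used here says which made the whole-number counts or how reads that map to several places were treated. The ULA columns carry a letter A that no source explains. GENCODE M21 gave symbols for 52081 of 57010 identifiers, positions and transcript sequences.

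Genes passed filterByExpr at a minimum count of 10 and a minimum total of 15. With TMM factors, ULA was compared to BUS by the quasi-likelihood test of edgeR 4.0.16 in R 4.3.3 (4 libraries, no covariate; biological coefficient of variation 0.242, 2 residual degrees of freedom). Standard errors came from the F statistic. DESeq2 1.42.0, limma-voom (limma 3.58.1), 6 other scalings or library definitions, 2 filters, a call by an unadjusted p under 0.05 with a fold over 1.5, the replicate number as a block and leaving out each library were alternatives, and sums with the nuclear copies were added after seeing the data. Copies were found by exact windows of 50 bases in other transcripts. Scripts were tested on simulated data.

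The members, the lists of nuclear genes and the cell type markers were chosen with earlier results of these data known. Named genes were all 13 protein genes, the tested transfer RNAs and the 3 with most counts among the others, the ribosomal RNAs, up to 3 called genes per nuclear list by p (or the 2 most abundant), and Lars2 and ENSMUSG00000119584. For Ict1 and Prorp no row matched. Intervals and floors (3 counts) cover counting error only.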

Additional observations from a re-analysis of the deposited data

How the results depend on the processing

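Of all genes, 2706 were called higher and 3512 lower. With upper-quartile factors 4282 were higher, with an unadjusted p under 0.05 and a fold over 1.5 4464 were higher, and with scaling to the summed mitochondrial protein genes 966 were lower. Leaving out 1 library at a time gave 656 to 5556 higher and 714 to 6429 lower, the lowest values without ULA replicate 2 and the highest without BUS replicate 2. The scaling moved the median log2 fold change of all genes from 0.02 to 0.31 with upper-quartile factors, 0.22 with nuclear protein-coding genes, 0.53 with the mitochondrial sum and -0.20 with library size alone, where 1877 were higher and 5031 lower.

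The count of 0 called mitochondrial protein genes depended on these choices. With upper-quartile factors 2 were higher (mt-Atp6 and mt-Co3), with the mitochondrial sum 1 was higher (mt-Co3), and with no filter beyond 1 count 2 were lower (mt-Co1 and mt-Nd5) and 1 transfer RNA was higher (mt-Ts2). The mitochondrial sum scales the protein genes by their own total, in which mt-Co1 took 47.6% to 55.7%. For these genes it gives values relative to one another and is no separate check. Leaving out 1 library gave 0 to 1 higher (mt-Co3 without BUS replicate 1) and 0 to 2 lower (mt-Co1 and mt-Nd5 without BUS replicate 2). For the transfer RNAs, 0 were lower with the mitochondrial sum, and 0 to 1 when a library was left out.

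Small fold changes changed sign. mt-Nd2 turned to 0.16 with upper-quartile factors, 0.075 with nuclear protein-coding genes and 0.38 with the mitochondrial sum, mt-Nd4l to 0.27, 0.18 and 0.47 in the same order, and to 0.023 with at least 10 counts in every library, and mt-Nd6 to 0.21, 0.12 and 0.42. Leaving out 1 library gave -0.47 to 0.18 for mt-Nd2, -0.73 to 0.50 for mt-Nd4l and -0.36 to 0.20 for mt-Nd6, positive without BUS replicate 1 or ULA replicate 2. The mitochondrial sum, which scales these genes by their own total, also turned mt-Nd1 (0.068), mt-Atp8 (0.14), mt-Nd4 (0.20), mt-Nd5 (0.036) and mt-Cytb (0.13). Library size alone turned mt-Tn (-0.083) and mt-Tc (-0.0097). The causes were not tested. The share of counts kept its direction with both other denominators.

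With the replicate block, 5151 genes were higher and 5901 lower, and of the mitochondrial protein genes 2 were higher (mt-Atp6 and mt-Co3) and 4 lower (mt-Nd1, mt-Co1, mt-Nd5 and mt-Cytb). The replicate numbers pair the libraries by number only: deviations from the group means correlated at 0.33 between same-numbered libraries, and with 2 per group both pairs give the same value.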
